A study of Homo sapiens with 6 samples.

Results

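The 9 genes described here encode proteins that senescent fibroblasts are known to release: the cytokine IL6, the chemokines CXCL8 and CCL2, the interleukins IL1A and IL1B, the collagenase MMP1, the stromelysin MMP3, and the insulin-like growth factor binding proteins IGFBP3 and IGFBP7. They were chosen by name, with earlier results of the series known, from the 19974 protein-coding genes that RefSeq places on chromosomes 1 to 22 and X of GRCh38.p14. A peak was assigned to a gene when at least 1 bp of it lay in the gene's RefSeq span or within 5 kb on either side. All 9 genes were found in the table, and no expression was measured here, so nothing below says whether they were transcribed.

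The peaks come from ChIPmentation, in which a transposase adds adapters to antibody-bound chromatin while it is still on the beads. The cells were IMR90, an established line of human embryonic lung fibroblasts. SON was mapped without treatment, after 3 days and after 6 days of a treatment labelled ICM, an abbreviation the labels do not expand, always in cells fixed with formaldehyde alone. HMGB2 was mapped in untreated cells fixed with the protein crosslinker EGS and then with formaldehyde, so a contrast between SON and HMGB2 cannot be told apart from one between fixations. There was 1 deposited list for each of these 4 groups, and the other 2 samples of the series (input chromatin, and HMGB2 with DSG in its title) were not analysed here. No test between conditions was therefore made, and a gene without a peak is only a gene at which the authors' calling listed none.

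Senescent cells stop dividing and secrete a mixture of cytokines, chemokines, growth factors, proteases and binding proteins, the senescence-associated secretory phenotype. IL1A at the cell surface signals through the IL1 receptor to NF-kB, which with C/EBP beta activates genes such as IL6 and CXCL8. SON is a core protein of nuclear speckles, bodies rich in splicing factors that lie next to many active genes. HMGB2 bends DNA, and in other work it has been placed at secretory phenotype loci of senescent cells.

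The lists differ in length and reliability, which sets what a missing peak can mean. They held 22362 lines for SON in untreated cells, 11158 at 3 days, 5583 at 6 days and 6013 for HMGB2, and their median −log10 p, the authors' measure of how far a peak stands above its background, was 9.91, 9.10, 8.55 and 9.52. Each SON line was made from 2 replicates and carries a global irreproducible discovery rate (IDR), which is low when both replicates rank a peak consistently high. In the order untreated, 3 days and 6 days, IDR reached 0.431, 0.447 and 0.630 at most, and 59.7%, 41.8% and 16.0% of lines had an IDR up to 0.05. The replicates carried one identical p-value in 55.9%, 29.0% and 9.49% of lines. The −log10 p of a peak, for SON the lower of its replicates, is called its strength below and is given with its rank from the strongest line and its percentile in the list. These values are the authors' own for each peak, and ranks of lists of different length show no change.

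The 250 bases before the start of IL6 and of CXCL8 are printed from RefSeq (GRCh38.p14, plus strand), because IL6 is the only one of the 5 genes with a promoter in the table that had a peak over it, and CXCL8 is the NF-kB target whose nearest peak in untreated cells was 35.7 kb away. Capitals mark matches, searched on both strands, to a form of the NF-kB site (GGG, any 2 bases, TTTCC), its shorter form GGNNTTTCC, which every match of the longer form contains, TGANTCA (AP-1), TTNNGNAAT (C/EBP), TATAAA (the TATA box) and a core of the CTCF site (CCA, any 2 bases, AG, any 2 bases, GGC).
IL6, chr7:22726950-22727199: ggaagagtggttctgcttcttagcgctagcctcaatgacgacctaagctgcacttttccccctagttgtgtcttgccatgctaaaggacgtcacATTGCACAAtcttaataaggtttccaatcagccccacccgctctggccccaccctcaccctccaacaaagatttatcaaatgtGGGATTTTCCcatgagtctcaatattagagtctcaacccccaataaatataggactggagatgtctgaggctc
CXCL8, chr4:73740319-73740568: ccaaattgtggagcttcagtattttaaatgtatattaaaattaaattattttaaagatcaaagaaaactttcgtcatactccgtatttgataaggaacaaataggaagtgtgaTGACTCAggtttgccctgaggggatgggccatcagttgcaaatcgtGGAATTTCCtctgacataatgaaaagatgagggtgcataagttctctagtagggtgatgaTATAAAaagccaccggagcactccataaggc

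The untreated SON peak at IL6 covered 179 of these 250 bases, from 22726950 to 22727128. It contained all 9 bases of the C/EBP match of IL6, at positions -156 to -148 from the start. Of the NF-kB match GGGATTTTCC, at positions -73 to -64, only the first 2 bases lay under the peak. The peak was 484 bp wide and weak (percentile 26.1, IDR 0.431). Its edge is only where the authors' calling ended it, so no contrast between these 2 matches can be drawn. The promoter of CXCL8 held the shorter NF-kB form GGAATTTCC at -91 to -83, an AP-1 match TGACTCA at -137 to -131 and a TATA box at -31 to -26, with no peak over it in any list. The 3 other promoters available, of IL1A, IL1B and IGFBP3, also had no peak over them. CCL2, MMP1, MMP3 and IGFBP7 had no entry.

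Among all 35116 promoter windows of the same length (250 before to 50 after a start), the longer NF-kB form occurred in 1.91%, GGNNTTTCC in 6.26%, TGANTCA in 7.71%, TTNNGNAAT in 11.0%, the CTCF form in 2.41% and TATAAA in 11.5%. Of the 5 member promoters, 1 held the longer and 2 the shorter NF-kB form, 2 the AP-1 form (IL1A and CXCL8) and none the CTCF form. The C/EBP form was in 3 (IL1A, IL1B and IL6). The letters TATAAA were in 2, CXCL8 at -31 to -26 and IL1A at -239 to -234. The base composition differed widely, with 37.6% G and C in the upstream bases of CXCL8, 47.6% in IL6 and 76.0% in IGFBP3, against a median of 58.0% over all promoters. As background, a SON peak lay over 25.9% of promoters on chromosomes 1 to 22 and X without treatment, 18.2% after 3 days and 7.34% after 6 days, and an HMGB2 peak over 8.37%. A match is only a run of letters and shows no binding.

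Of the 9 genes, 4 had a peak in at least 1 list: IL6, CXCL8, CCL2 and IGFBP7. In untreated cells SON peaks lay at 3 of the 9 genes, IL6, CCL2 and IGFBP7 (33.3%, 95% exact binomial interval 7.49 to 70.1%), where 57.1% of all protein-coding genes had one. At 3 days the gene with a SON peak was CCL2 (11.1%, 0.281 to 48.2%), against 41.0% of all genes. At 6 days it was CXCL8, 1 of 9 again, against 21.5% of all genes. HMGB2 peaks were found at 1 of 9, IGFBP7, against 23.3% of all genes. IL1A, IL1B, MMP1, MMP3 and IGFBP3 had no peak in any of the 4 lists, which was also true of 40.3% of all protein-coding genes.

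Gene length enters these shares, because a longer span can hold more peaks. The spans ran from 1.92 kb (CCL2) to 10.6 kb (IL1A) in 8 of the 9 genes, and IGFBP7 spans 79.6 kb. The median span was 7.81 kb, against 24.2 kb over all protein-coding genes. Of the 8983 protein-coding genes with a span of at most 20 kb, 45.7% had a SON peak in untreated cells, 32.8% at 3 days, 16.9% at 6 days and 20.9% an HMGB2 peak. The intervals of the 9 genes contain each of these shares, so with 9 genes neither a lower share than other short genes nor an equal one is shown. None of the 9 had a peak in all 3 SON lists, a state met by 20.3% of all protein-coding genes.

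**Figure D1:**
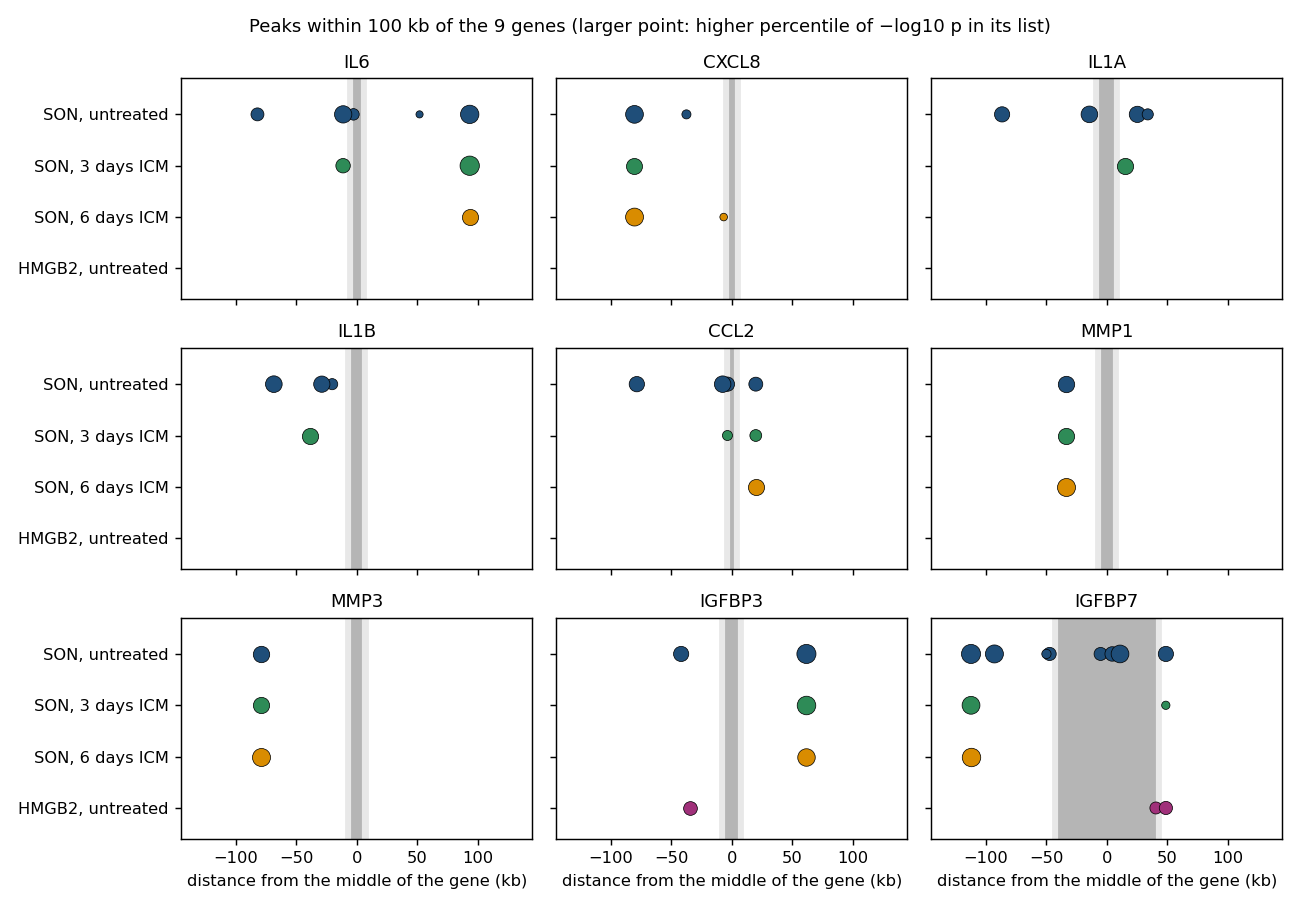
Peaks within 100 kb of each gene, by distance in kb from the middle of the gene, with 1 row per list. Dark grey is the gene span, light grey the 5 kb on each side, and larger points have a higher percentile of −log10 p in their own list. The 6-day peak at CXCL8 touches the edge of its window, and MMP1, MMP3 and IGFBP3 have peaks only outside the windows.

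IL6, the cytokine most used as a readout of the secretory phenotype, had 1 SON peak in untreated cells, on chromosome 7 from 22726645 to 22727128. It ended 72 bp before the gene (22727200 to 22731998) and overlapped the long non-coding gene IL6-AS1. Its strength was 7.34 in both replicates, rank 16514 of 22362 and percentile 26.1, and its IDR of 0.431 was the largest in the list, a value it shared with 7286 lines in all. A stronger SON peak stood outside the window, 8.56 kb before the gene from 22718157 to 22718644, with a strength of 14.9 and an IDR of 0.00693. The same position was listed at 3 days, with a strength of 8.82 and an IDR of 0.0726. At 6 days the nearest SON peak was 90.7 kb away over TOMM7, which encodes a subunit of the mitochondrial import pore, and the nearest HMGB2 peak was 282 kb away over HYCC1.

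CXCL8, the neutrophil-attracting chemokine also called interleukin-8, had no SON peak in its window in untreated cells or at 3 days. Its 6-day peak, on chromosome 4 from 73735260 to 73735596, lay 4.97 kb before the gene (73740569 to 73743716), just inside the limit of 5 kb. It was one of the weakest lines of the 6-day list, with a strength of 5.76 and 5.79 in the replicates, rank 5293 of 5583, percentile 5.18 and the list's largest IDR of 0.630, which 2177 lines had. No peak of the other lists overlapped it. In untreated cells the nearest SON peak was 35.7 kb before the gene over the long non-coding gene INKILN, with a strength of 6.19 and the list's largest IDR. A position 78.5 kb before the gene and 40.9 kb from RASSF6 was listed in all 3 SON lists, with a strength of 16.3, 10.4 and 11.4. The nearest HMGB2 peak, over COX18, was 671 kb away.

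CCL2, which attracts monocytes, was the only gene of the set with a SON peak in its window in 2 lists. In untreated cells the peak lay on chromosome 17 from 34252507 to 34252822, 2.46 kb before the gene (34255285 to 34257203). Its strength was 9.36 and 11.0 in the replicates, at rank 12115 and percentile 45.8, with an IDR of 0.0202. At 3 days an overlapping peak ran from 34252490 to 34252826, with a strength of 10.9 and 6.62 in the replicates, rank 9226 of 11158, percentile 17.3 and an IDR of 0.170. No 6-day peak was listed there. Another untreated peak stood just outside the window, 6.42 kb from the gene, with a strength of 12.7 and an IDR of 0.0115. The nearest HMGB2 peak was 1116 kb away, 24 bp from SLFN11.

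IGFBP7, a secreted binding protein linked to senescence, had the most peaks of the set and the only ones inside a gene span. SON had 3 peaks in it in untreated cells, on chromosome 4 from 57065184 to 57065645, from 57074772 to 57075172 and from 57081104 to 57081796, within the span from 57030773 to 57110385. Their strengths were 8.33, 9.58 and 16.4, at percentiles 36.6, 47.5 and 76.9, and their IDRs were 0.0179, 0.0187 and 0.00660. The last of these was the strongest of the 8 peaks in the windows of the 9 genes and the one above the median of its list. Whether they lie in exons or introns is not given by the gene table used here. No SON peak was in the window at 3 or 6 days.

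The HMGB2 peak of IGFBP7 lay 604 bp beyond the gene, at its higher coordinates, from 57110989 to 57111168, over the long non-coding gene IGFBP7-AS1. It had a fold enrichment of 5.56, a strength of 7.85 and rank 4235 of 6013, at percentile 29.4, and overlapped no SON peak. Another HMGB2 peak, 8.80 kb beyond the gene from 57119189 to 57119460, had a fold enrichment of 4.71. This position, also in IGFBP7-AS1, carried SON peaks in untreated cells (strength 10.5, IDR 0.0183) and at 3 days (5.92, IDR 0.447). Within 100 kb of the 9 genes it was the single position that HMGB2 shared with a SON list.

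**Figure D2:**
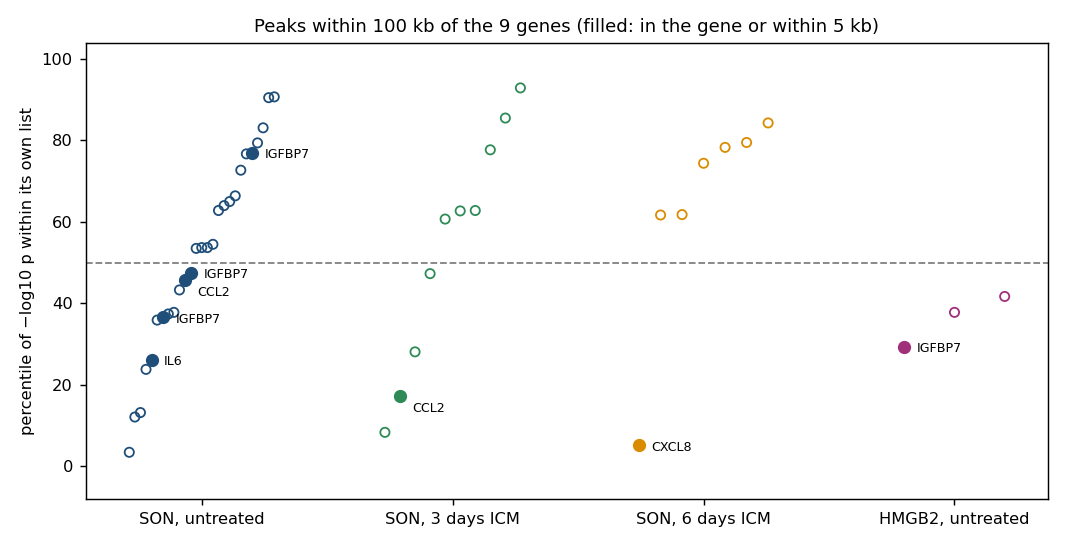
Percentile of −log10 p, within its own list, of each peak within 100 kb of any of the 9 genes, each peak drawn once. Filled points lie in a gene or within 5 kb of it and run from percentile 5.18 (CXCL8, 6 days) to 76.9 (IGFBP7, untreated), and 1 of the 8 is above the dashed line at 50.

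IL1A and IL1B, neighbouring genes for the α and β forms of interleukin-1, had SON peaks between and beside them but none within 5 kb. In untreated cells the nearest peak to IL1A was 8.87 kb away, from 112764549 to 112765051 on chromosome 2 over CKAP2L, with a strength of 13.1 in both replicates and an IDR of 0.00940. Between both genes lay 2 further untreated peaks, with a strength of 12.3 and 7.17, the latter 16.7 kb from IL1B. The 3-day list had 1 peak between them, from 112794166 to 112794524, 9.67 kb from IL1A, with a strength of 10.7, an IDR of 0.0643 and no overlapping peak in untreated cells. At 6 days the nearest SON peak was 456 kb from IL1A and 404 kb from IL1B, over PAX8. The nearest HMGB2 peak was 128 kb and 184 kb away, 9 bp from SLC20A1.

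MMP1 and MMP3, a collagenase and a stromelysin that cut matrix proteins, sit in the matrix metalloproteinase cluster of chromosome 11. Both had the same nearest SON peak in all 3 lists, 29.1 kb from MMP1 and 75.0 kb from MMP3, at 9.71 kb from MMP10. The untreated peak ran from 102760284 to 102760791 with a strength of 12.5 and 20.8 in the replicates and an IDR of 0.104. Its counterparts had a strength of 10.7 at 3 days (percentile 62.8, IDR 0.0219) and 11.7 at 6 days (percentile 79.5, IDR 0.0787). From MMP10 to MMP13, a stretch of 185 kb with 5 protein-coding genes, no SON list had a peak. HMGB2 had 1 peak there, over MMP13, with a fold enrichment of 5.21.

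IGFBP3, the main carrier of insulin-like growth factors in blood, likewise had no peak in its window. In untreated cells the nearest SON peak was 37.1 kb away over CCDC201, with a strength of 10.5 and an IDR of 0.0131. A stronger SON position 56.8 kb away, over the long non-coding gene LOC102723446, was listed in all 3 SON lists. It ran from 45978083 to 45978687 on chromosome 7 in untreated cells, with a strength of 26.4, rank 2073, percentile 90.7 and an IDR of 0.00278. At 3 days its strength was 18.2 (percentile 85.5) and at 6 days 10.9 (percentile 74.4, IDR 0.209). The nearest HMGB2 peak was 29.9 kb away over CCDC201, with a fold enrichment of 5.64. Between IGFBP1 and IGFBP3, 32.8 kb in all, none of the lists had a peak.

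The counts depend on the limit of 5 kb. The CXCL8 peak at 6 days was just inside, at 4973 bp. The next outside were untreated SON peaks at 6.42 kb (CCL2) and 7.32 kb (IGFBP7), genes that already had an untreated peak in their windows. The nearest that would add a gene to a count were at 8.67 kb (IL6, 3 days), 8.72 kb (IGFBP7, 3 days) and 8.87 kb (IL1A, untreated). With the gene span alone, only IGFBP7 in untreated SON kept a peak, where 50.2% of all genes did. With 50 kb each side, 8 of the 9 genes had a SON peak without treatment, 6 after 3 days and 3 after 6 days, where 77.3%, 64.2% and 41.0% of all genes did.

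The distance to the nearest peak does not depend on a window. Its median over the 9 genes was 16.7 kb for untreated SON, 29.1 kb at 3 days, 72.1 kb at 6 days and 153 kb for HMGB2. Over all protein-coding genes the medians were 0, 16.9, 85.2 and 101 kb, and over those of at most 20 kb they were 8.46, 25.8, 87.7 and 93.9 kb. Of the 9 genes, 8, 5, 3 and 7 lay farther from a peak than the median of all genes. Because the untreated median of all genes is 0, the count of 8 is the number of the 9 genes with no peak over the span itself, and no gene could be nearer. At 6 days CXCL8 was the nearest of the 9, at 4.97 kb. With SON lines of an IDR up to 0.05 alone, the 6-day median of the 9 genes was 2393 kb against 797 kb over all genes, so the 9 genes were then the farther. Neighbouring genes share peaks, so IL1A with IL1B and MMP1 with MMP3 are not independent.

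**Figure D3:**
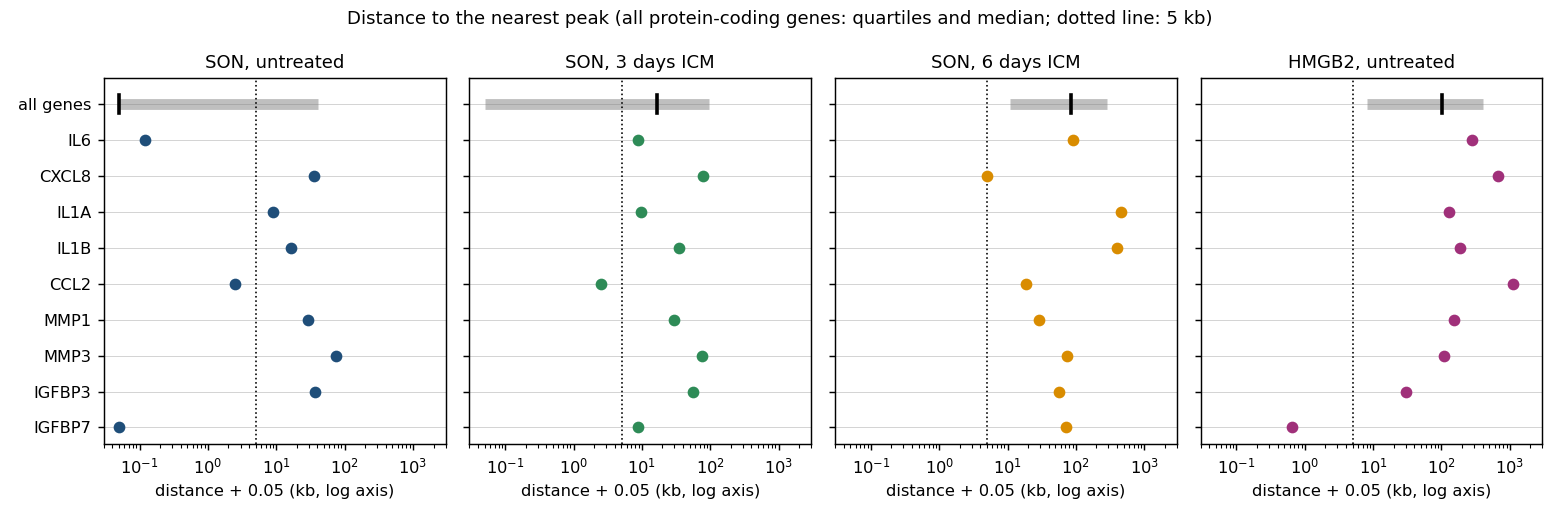
Distance in kb from each gene to the nearest peak of each list, plotted as distance plus 0.05 kb on a log axis, with quartiles and median of all protein-coding genes on top. Points left of the dotted line are genes with a peak within 5 kb, which are IL6, CCL2 and IGFBP7 for untreated SON, CCL2 at 3 days, CXCL8 at 6 days and IGFBP7 for HMGB2.

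Peaks within 100 kb of the 9 genes fell on 31 separate positions. SON peaks of untreated cells were at 27 of them, 3-day peaks at 10 and 6-day peaks at 7. In all 3 SON lists there were 6 positions, and each of these lay outside the 5 kb windows: at TOMM7 near IL6, between RASSF6 and CXCL8, at CCL7 near CCL2, near MMP10, near IGFBP3, and 72.2 kb from IGFBP7, where the nearest gene is NOA1. In the untreated SON list and in no other list, HMGB2 included, there were 18 positions. They were 66.7% of the 27, against 47.0% of all 22185 positions with an untreated SON peak on chromosomes 1 to 22 and X. The 6 in all 3 SON lists were 22.2% of the 27, against 19.1%, and these differences were not tested. The 3-day list had 1 position of its own (between IL1A and IL1B), the 6-day list 1 (CXCL8), and HMGB2 was alone at 2, near IGFBP3 and IGFBP7. Within 500 kb, the number of untreated SON peaks ranged from 4 for CCL2 to 15 for IL6, with a median of 11, against 13 over all genes. For HMGB2 it ranged from 0 for CXCL8 and CCL2 to 4 for MMP1 and MMP3, with a median of 2, against 3.

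The chemokine clusters around CXCL8 and CCL2 held SON peaks between genes. From CXCL8 to CXCL2, 359 kb with 9 protein-coding genes, there were 5 untreated peaks, 3 at 3 days, 4 at 6 days and none of HMGB2. A position 45.8 kb from CXCL1, from 73917090 to 73917521 in untreated cells, was listed in all 3 lists with a strength of 18.0, 17.3 and 8.31. At 6 days a weak peak lay over CXCL1 itself, a chemokine of the same family, with the same strength of 5.76 and IDR of 0.630 as the CXCL8 peak. CXCL2 had a weak peak in untreated cells (strength 6.57, IDR 0.431) and none at 3 or 6 days. From CCL2 to CCL13, 103 kb with 5 genes, each SON list had 1 peak. It lay 3.60 kb from CCL7 in untreated cells, with a strength of 9.04, 7.36 and 9.45 and an IDR of 0.0162, 0.447 and 0.230 in the order of the lists.

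The other secreted factors were read from a list of 57 genes. Of these, 27 had a SON peak in untreated cells (47.4%), 14 at 3 days (24.6%), 11 at 6 days (19.3%) and 14 an HMGB2 peak (24.6%), beside the 57.1%, 41.0%, 21.5% and 23.3% of all protein-coding genes given above. Their median span was 12.1 kb, and that of the chemokines 2.14 kb, against 24.2 kb over all protein-coding genes. Among genes of at most 20 kb the shares were 45.7%, 32.8%, 16.9% and 20.9%, and no difference was tested. Chemokines had 4 of 14 in untreated cells and no HMGB2 peak, interleukins 3 of 8 and growth factors 7 of 15. Proteases had 6 of 10 and protease inhibitors 5 of 5. Peaks in all 3 SON lists were found at 8 of the 57 genes, beside 20.3% of all protein-coding genes. Among the 8 were CCL7, CCL20, IL18, VEGFC, CTSB, PLAU and TIMP2. IL18, an interleukin-1 family cytokine, had a strength of 24.0, 21.3 and 16.0 in the order of the lists, at percentiles 88.9, 88.8 and 91.4. PLAU, the urokinase plasminogen activator, had 2 peaks in each SON list, the stronger with a strength of 14.9, 9.05 and 14.4, and 1 HMGB2 peak with a fold enrichment of 2.82.

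Receptors and regulators of the secretory phenotype were read from lists of 11 and 26 genes. Receptors had a SON peak at 8 of 11 genes without treatment (72.7%), 6 after 3 days (54.5%) and 3 after 6 days (27.3%). An HMGB2 peak was at 6 of the 11 (54.5%). Over all protein-coding genes these shares were 57.1%, 41.0%, 21.5% and 23.3%. IL1R1, through which both interleukin-1 forms signal, had 7, 2 and 1 SON peaks and 2 HMGB2 peaks, in a span of 109 kb. Regulators had a SON peak at 22 of 26 genes without treatment (84.6%), 16 after 3 days (61.5%) and 13 after 6 days, and an HMGB2 peak at 15 (57.7%). Among all protein-coding genes 20.3% had a peak in all 3 SON lists, and 12 of the 26 regulators did. The median span was 42.2 kb for receptors and 30.8 kb for regulators, both longer than that of the 9 genes, and the difference between the groups was not tested.

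RELA, the p65 subunit of NF-kB, had 2 SON peaks in each list, the stronger with a strength of 42.8, 20.2 and 13.8 and an IDR of 0.00133, 0.00117 and 0.0314, and 2 HMGB2 peaks. STAT3, which relays signals of the IL6 receptor, had 3, 2 and 1 SON peaks, the strongest with a strength of 40.6, 24.2 and 11.7, and 3 HMGB2 peaks, of which the strongest ranked 74 of 6013. JUN, an AP-1 subunit, had 1 SON peak in each list (38.9, 25.1 and 10.4) and 6 HMGB2 peaks, of which the strongest had a strength of 58.3 at rank 52. FOS, its partner, had a SON strength of 12.9, 44.0 and 25.8 and 9 HMGB2 peaks. JUN and FOS span 3.26 and 3.40 kb, close to the 3.15 kb of CXCL8. NFKBIA, a regulator of similar span (3.24 kb), had 1 untreated SON peak with a strength of 11.1 and none in the other lists. CEBPB, the gene of C/EBP beta, had 1 untreated SON peak with a strength of 10.8 and none in the other lists. NFKB1, IKBKB, CGAS and IL1RN, also among the regulators, had no peak in any of the 4 lists.

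**Figure D4:**
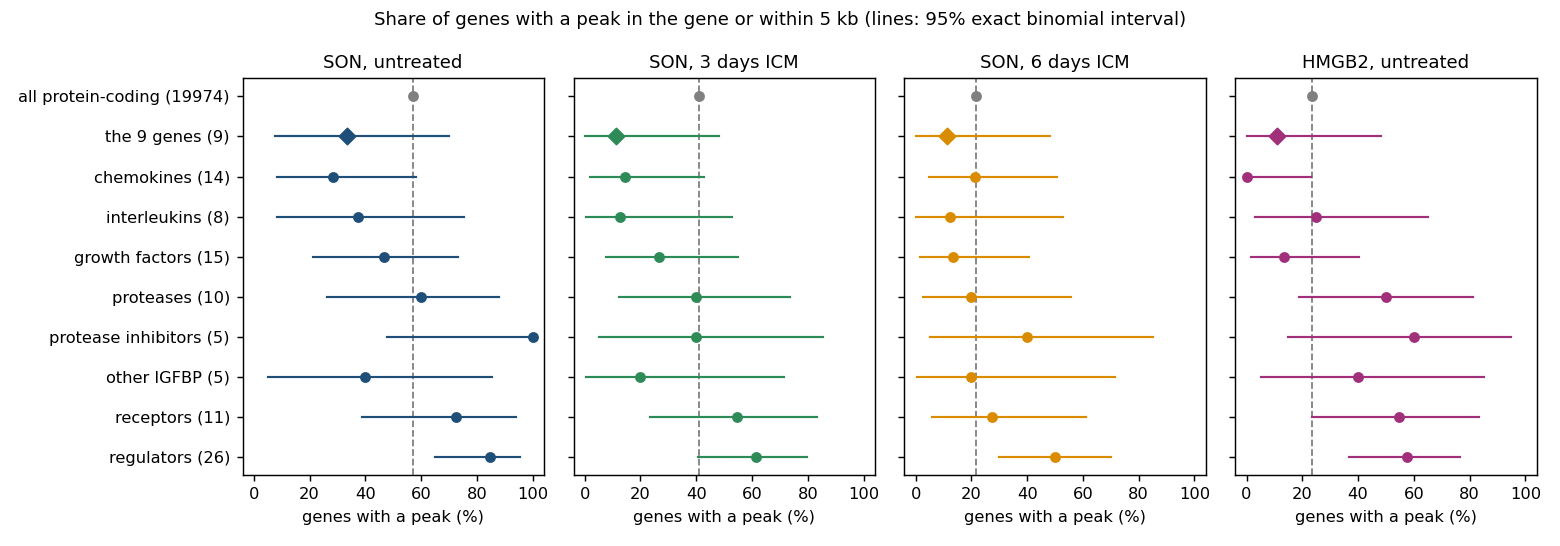
Share of genes with a peak in the gene or within 5 kb, for each list, in percent. The diamond is the set of 9 genes, circles are the other gene lists with their number of genes in brackets, horizontal lines are 95% exact binomial intervals, and the dashed line is the share of all protein-coding genes. The 9 genes lie left of the dashed line in all 4 lists and the regulators right of it.

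For comparison, 2 other lists of fibroblast genes were read the same way. Of 20 matrix genes, such as collagens and fibronectin, 15 had a SON peak in untreated cells, 7 at 3 days, 7 at 6 days, and 12 an HMGB2 peak, with a median span of 37.4 kb. Of 25 cell cycle genes that fall silent in senescence, 24 had a SON peak in untreated cells, 19 at 3 days, 4 at 6 days, and 10 an HMGB2 peak, with a median span of 16.8 kb. The 9 secretory phenotype genes had 3, 1, 1 and 1. The shares of all protein-coding genes, in the same order, were 57.1%, 41.0%, 21.5% and 23.3%. Matrix genes lay below this background only at 3 days (35.0%). Cell cycle genes lay below it only at 6 days (16.0%), where the share of all genes was also at its lowest. All of these gene lists were chosen by hand with earlier results of the series known, and the differences between them were not tested.

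Within the 9 genes, the reliability of the peaks was uneven. Of the 7 SON peaks in their windows, 4 met an IDR of at most 0.05, all in untreated cells: the CCL2 peak and the 3 peaks of IGFBP7. The IGFBP7 peaks with a strength of 8.33 and 16.4 carried the same p-value in both replicates. In the untreated list 55.9% of lines did so, against 29.0% at 3 days and 9.49% at 6 days. How this bears on the IDR was not tested. The IL6 peak in untreated cells and the CXCL8 peak at 6 days sat at the largest IDR of their lists, and the 3-day CCL2 peak had 0.170. At an IDR of at most 0.05, CCL2 and IGFBP7 had a SON peak in untreated cells, where 45.0% of all genes had one. None of the 9 genes had one at 3 or 6 days, where 24.0% and 5.02% of all genes did.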

How the data were processed

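SON and HMGB2 ChIPmentation peak lists of 4 of 6 samples were analysed, grouped by treatment label and title. Per the submitters' processing notes, bcl2fastq 2.17, Bowtie2, MACS2, deepTools and the build hg38 were used; their roles and settings, and whether replicates were separate cultures, are not given in the sources used here. The deposited SON lists hold the authors' −log10 p per line (the lower of 2 replicates), the replicates' own values, a −log10 global IDR and an IDR score. The deposited HMGB2 list holds the authors' fold enrichment as a ratio, −log10 p, −log10 q and score, and its peak names state a q of 0.03. The depth of the libraries is unknown.

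Peaks were assigned to RefSeq gene spans (GRCh38.p14) plus 5 kb, with at least 1 bp of overlap, and ranked by −log10 p within their list (ties take the best rank). Intervals are Clopper-Pearson and cover counting error only. With 1 list per group no test was made. All 9 genes are named with every peak in their windows, as are the nearest peak where there was none, and of the other genes those in all 3 SON lists or strongest by −log10 p, of which only examples are described. The members and lists were chosen with earlier results of these data known. CEBPB, NFKB1, IKBKB, CGAS, IL1RN, NFKBIA, CXCL1, CXCL2, the gene clusters and the shorter NF-kB form were chosen after their values were seen. Window counts and distances were tested on simulated data. Analyses used pandas 2.3.3 and numpy 2.4.6 in Python 3.11.15, with scipy 1.17.1 for intervals and matplotlib 3.10.9 for plots.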

Additional observations from a re-analysis of the deposited data

How the results depend on the processing

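Counts of the 9 genes with a peak (3, 1, 1 and 1 for untreated SON, 3 days, 6 days and HMGB2) moved by more than 1.5 times in most alternatives, and so did the shares of all genes in several. With the gene span alone they were 1, 0, 0 and 0 (all genes 50.2, 34.8, 17.1 and 15.6%), and with 50 kb each side 8, 6, 3 and 2 (77.3, 64.2, 41.0 and 40.2%). The stronger 50% of each list gave 1, 0, 0 and 0 (40.9, 27.2, 12.7 and 13.7%). A global IDR of at most 0.05 left 2, 0 and 0 for SON (45.0, 24.0 and 5.02%). With lists of equal length, the strongest 5583 lines, the counts were 1 for untreated SON and 0 at 3 days (26.3 and 27.2%). When the peak centre had to lie in the window, the 6-day count was 0 (21.4%).

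Median distances for untreated SON, 3 days, 6 days and HMGB2 were 25.1, 72.1, 75.0 and 1053 kb with the stronger 50%, against 18.2, 58.0, 198 and 230.1 kb over all genes. At a global IDR of at most 0.05 those for SON were 25.1, 78.6 and 2393 kb, against 11.1, 77.4 and 797 kb. The 9 genes were thus nearer than all genes at 6 days in the full list (72.1 against 85.2 kb) and farther at this IDR. With equal lengths the medians were 189 kb for untreated SON and 72.1 kb at 3 days, against 63.0 and 57.9 kb, so the untreated list was the farther of both for the 9 genes and for all genes.

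Of the 94 other genes, 57, 36, 27 and 35 had a peak (60.6, 38.3, 28.7 and 37.2%, all genes 57.1, 41.0, 21.5 and 23.3%). These fell to 25 for untreated SON and 22 at 3 days with equal lengths (all genes 26.3 and 27.2%). The stronger 50% left 22 at 3 days and 22 for HMGB2 (all genes 27.2 and 13.7%). A global IDR of at most 0.05 left 21 at 3 days and 5 at 6 days (all genes 24.0 and 5.02%). Fewer lines or a narrower window give fewer genes by construction. No paired analysis was possible because each group has 1 list, so leaving out replicates was not possible either.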

Other observations

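IGFBP5, a relative of IGFBP3 and IGFBP7 that is also secreted by senescent fibroblasts, had 20 HMGB2 peaks, 19 of them over its own span of 23.4 kb on chromosome 2. No other of the 19974 protein-coding genes had as many. Their fold enrichment ran from 3.33 to 10.2, with a median of 5.71. The next genes were TPM4, a tropomyosin, with 15, and LMNA, which encodes lamins A and C, NR4A1, an orphan nuclear receptor, and PDE10A, a phosphodiesterase, with 14 each. SON had 1 peak at IGFBP5 in untreated cells, with a strength (−log10 p) of 7.78 and the list's largest IDR, 0.431, and none at 3 or 6 days. IGFBP4 had 4 HMGB2 peaks and no SON peak in any list.

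LIF, a cytokine of the IL6 family, had 4 HMGB2 peaks, the strongest with a fold enrichment of 7.38, and no SON peak in any list. IL11, another cytokine of this family, had 3 HMGB2 peaks and 1 untreated SON peak. The HMGB2 peak nearest to IL6 itself was 282 kb away. FOSB, an AP-1 subunit gene with a span of 7.18 kb, had 12 HMGB2 peaks. These genes were singled out after their values were seen.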
